A study of Mus musculus with 59 samples.

Results

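The genes described are 10 members of the ESCRT-III membrane-remodelling machinery, namely Chmp1a, Chmp1b, Chmp2a, Chmp2b, Chmp3, Chmp4b, Chmp5, Chmp6, Chmp7 and the ATPase gene Vps4a. They were taken by name from a table of 51456 genes, and all 10 were among the 16839 genes with a mean of at least 10 normalized counts that were tested. Chmp2a had been noted for a difference between genotypes in these same libraries, so its genotype values are given as a description with no test. RNA came from prefrontal cortex taken at postnatal day 25 from mice of the C57BL/6J strain. The libraries are labelled heterozygous (HT) for Chd8-S62X, an allele of the chromatin remodeller gene Chd8, or wild type (WT). Pups of both genotypes and both sexes had received fluoxetine, lithium or vehicle through the milk of their mothers from day 3 to day 24. The 29 HT-labelled and 30 WT-labelled libraries form 12 groups of 5, except for the HT-labelled females given fluoxetine, of which there were 4. Fluoxetine blocks serotonin reuptake, and lithium inhibits glycogen synthase kinase 3 and inositol monophosphatase. The labels do not tie libraries to animals, dams or litters, so p-values measure only the spread between these libraries and not the spread between treated dams.

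ESCRT-III proteins are small, soluble subunits that assemble into spiral filaments on the inner face of a membrane neck and draw it closed. Chmp6 and Chmp7 start the assembly, Chmp4b forms the core of the filament, Chmp3 with Chmp2a or Chmp2b caps it, and Chmp1a, Chmp1b and Chmp5 act late. Vps4a encodes an ATPase that pulls subunits out of the filament so that the neck can narrow and the parts be used again. The machinery sorts receptors into endosomes, closes autophagosomes, reseals the nuclear envelope and the plasma membrane, and separates daughter cells, and in neurons it takes part in the turnover of synaptic proteins and the pruning of processes.

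Chd8, the targeted gene (GRCm38 chr14:52198151-52257780, minus strand), had a mean of 5921 ± 384 normalized counts in HT-labelled libraries and 3656 ± 309 in WT-labelled libraries (SD, n = 29 and 30). HT-labelled libraries were higher without overlap in all 6 strata of treatment and sex, by 1.57 to 1.73 times. Because the targeted gene was higher under the HT label, genotypes are called by their labels throughout, and the direction of each genotype difference rests on those labels. Depth was estimated at 25.8 to 36.9 M reads per library, from the most common low value of each. This takes that value as 1 read and assumes 1 factor for all genes of a library, which was not established. Markers of the olfactory bulb differed widely between libraries, with mean log2 levels from 4.60 to 11.09. Markers of the striatum lay over 5 robust SDs above their median in 7 libraries, namely HT fluoxetine female 2, HT lithium female 5, HT lithium male 1, HT lithium male 4, HT vehicle female 3, WT lithium male 2 and WT vehicle female 5. All 7 markers of cortical excitatory neurons were above 0 in every library.

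The members were abundant and steady transcripts. On the scale of normalized counts per kilobase of annotated exon, Chmp4b stood highest with 2320, followed by Chmp2a with 1577, Chmp5 with 1331 and Vps4a with 1103. The ATPase gene was thus within the range of the subunits it acts on. Chmp2b followed with 895, Chmp1a with 849, Chmp3 with 837 and Chmp7 with 428, and Chmp1b with 312 and Chmp6 with 283 were lowest. Chmp6 and Chmp7, the genes that start assembly, were thus among the 3 lowest per kilobase, and Chmp2a lay above Chmp2b. These exon lengths merge all annotated transcripts, which may not all be used in this tissue.

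Across all 59 libraries the coefficient of variation was largest for Chmp2a, with 7.98%, and for Chmp6, with 7.96%. The other 8 members lay between 3.83% for Chmp7 and 5.73% for Chmp2b. The median over the 7426 tested genes with means of 500 to 5000 was 7.95%. Within groups the picture was different. The residual SD of Chmp2a was 0.050 on the log2 scale, the lowest of the 10, and only 0.6% of tested genes varied less, whereas the median of all tested genes was 0.16. Chmp2b had the highest residual SD of the members, 0.086. Chmp5 and Chmp7 were nearly as low as Chmp2a, at 0.051 and 0.052, and the median of all tested genes includes genes of low level. The spread of Chmp2a between groups holds the genotype difference for which the gene was noted, so it is no separate result. Choosing a gene for a clear difference also favours a low spread within groups, so its low residual SD is no separate result either.

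Chmp2a (ENSMUSG00000033916, chr7:13032010-13034807, minus strand) encodes a VPS2-type subunit that binds Vps4a and its paralogue Vps4b. Its promoter is printed because the gene carries the main genotype difference, beside that of Chmp2b, the other VPS2-type gene, for contrast. Each sequence runs 5′ to 3′ on the strand of the gene, from 250 bases before to 30 bases after the RefSeq start (GRCm38.p6), Chmp2a at chr7:13034748-13035027 and Chmp2b at chr16:65562733-65563012, both on the minus strand. Capitals mark a cyclic AMP response element and an NRF1 motif, 2 of 6 motifs searched on both strands, each in a single spelling.
Chmp2a: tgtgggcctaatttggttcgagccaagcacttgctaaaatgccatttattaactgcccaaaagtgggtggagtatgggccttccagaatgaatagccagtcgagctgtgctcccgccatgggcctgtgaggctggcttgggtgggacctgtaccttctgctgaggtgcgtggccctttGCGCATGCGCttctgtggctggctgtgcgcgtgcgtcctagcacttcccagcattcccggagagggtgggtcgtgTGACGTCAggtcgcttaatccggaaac
Chmp2b: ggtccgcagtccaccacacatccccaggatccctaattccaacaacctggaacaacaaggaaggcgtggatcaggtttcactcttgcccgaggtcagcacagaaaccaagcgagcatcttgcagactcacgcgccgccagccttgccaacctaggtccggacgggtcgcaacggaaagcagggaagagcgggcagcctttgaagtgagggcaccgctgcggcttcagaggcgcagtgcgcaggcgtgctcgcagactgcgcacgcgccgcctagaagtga

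The Chmp2a window held TGACGTCA, the full cyclic AMP response element, starting at base 4 of the transcript. It also held GCGCATGC, a spelling of the core of the NRF1 motif, on both strands in an overlapping pair that starts 72 bases before the start. Over the whole table of 32851 promoters, each 250 bases before to 50 after a start, the first is in 1.79% and the second in 2.71%. The Chmp2b window held none of the 6 in the spellings searched. The ETS motif CCGGAAG is in 8.86% of promoters. The E-box CACGTG is in 7.15%. The GC box GGGCGG is in 35.7%. The TATA box TATAAA is in 13.6%. Of the 7 members with a promoter in the table, Chmp1a, Chmp3 and Chmp5 held the ETS motif, and these together with Chmp4b and Vps4a the GC box. Chmp2a alone held the response element and GCGCATGC. Other spellings of the NRF1 core were not searched, and the Chmp2b window holds the similar gcgcacgcgc. The motifs were chosen after the Chmp2a sequence had been seen, and a match describes letters and not a bound site.

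Chmp2a had a higher mean in HT-labelled libraries in every stratum. In vehicle males the values were 1978, 1839, 1853, 1835 and 1931 normalized counts in HT-labelled libraries, against 1635, 1611, 1647, 1685 and 1735 in WT-labelled libraries. In vehicle females they were 2070, 1893, 2050, 2125 and 1962 in HT-labelled libraries, against 1716, 1570, 1754, 1628 and 1556 in WT-labelled libraries. In both sexes every HT-labelled library was above every WT-labelled library, with HT-labelled means 13.5% higher in males and 22.8% higher in females.

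The order was the same under lithium. Lithium males had 1973, 1906, 1926, 1818 and 1845 normalized counts of Chmp2a in HT-labelled libraries, against 1626, 1640, 1667, 1643 and 1590 in WT-labelled libraries. Lithium females had 1884, 2016, 1905, 1935 and 1955 in HT-labelled libraries, against 1667, 1720, 1772, 1760 and 1771 in WT-labelled libraries. The groups again did not overlap in either sex. HT-labelled means were 15.9% higher in males and 11.6% higher in females, so the sexes stood in the opposite order to vehicle.

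Under fluoxetine the means stood closer. Fluoxetine males had 1961, 1955, 1843, 2003 and 2068 normalized counts of Chmp2a in HT-labelled libraries, against 1913, 1791, 1766, 1737 and 1778 in WT-labelled libraries. Fluoxetine females had 1986, 1976, 2066 and 2010 in HT-labelled libraries, against 1853, 1801, 1907, 1850 and 1773 in WT-labelled libraries. The males overlapped, since 1 WT-labelled library (1913) was above 1 HT-labelled library (1843), and the females did not. HT-labelled means were 9.40% higher in males and 9.41% higher in females. Averaged over treatments, the genotype difference in males minus that in females was -0.02 on the log2 scale.

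**Figure D1:**
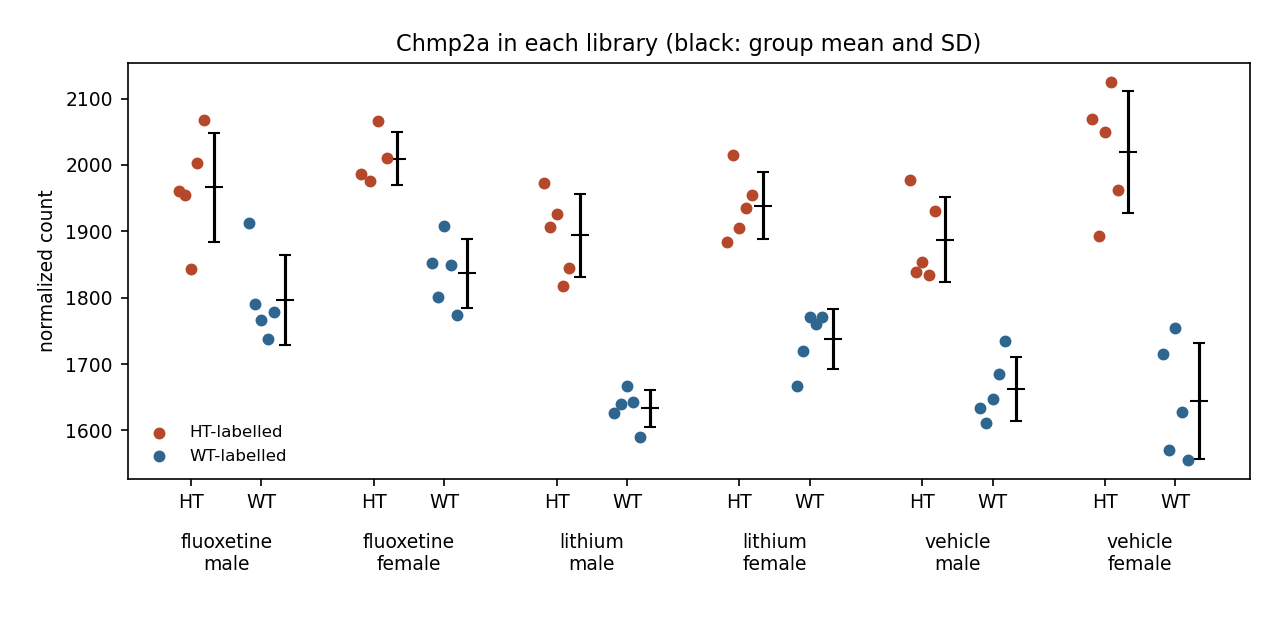
Normalized counts of Chmp2a (vertical axis) in each of 59 libraries, as points, by treatment, sex and genotype label (HT left of WT in each pair), with group means and SDs in black. HT-labelled libraries lay above WT-labelled libraries without overlap in 5 of 6 pairs, and WT-labelled fluoxetine libraries stood mostly above other WT-labelled libraries.

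Over all strata, Chmp2a had a lowest value of 1818, a median of 1955 and a highest value of 2125 normalized counts in the 29 HT-labelled libraries, against 1556, 1727 and 1913 in the 30 WT-labelled libraries. Of the HT-labelled libraries, 19 were above the highest WT-labelled one, and all 29 were above the WT median. Of the WT-labelled libraries, 26 were below the lowest HT-labelled one. The means were 1951 ± 81.2 and 1719 ± 95.2 normalized counts in HT-labelled and WT-labelled libraries (SD). The log2 difference averaged over the 6 strata was 0.18 ± 0.014 (SE), which is 13.7% with a 95% interval of 11.4 to 16.0%. It was 0.24 in vehicle, 0.13 in fluoxetine and 0.19 in lithium, and it stayed between 0.18 and 0.19 when any single library was left out. These values chose the gene and carry no test. For scale, the share of all tested genes with HT-labelled libraries higher and no overlap was 1.79% in fluoxetine females, where 4 libraries met 5, 0.683% in fluoxetine males, 0.624% in lithium females, 0.825% in lithium males, 0.588% in vehicle females and 0.576% in vehicle males. Fewer cells of a type and less RNA per cell cannot be told apart in such tissue samples, here or in any comparison that follows.

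The other 9 members did not share the difference. Averaged over strata, their log2 differences between HT-labelled and WT-labelled libraries ran from -0.06 to 0.05, 4 above 0 and 5 below, with a median of -0.0053, beside 0.0016 over all tested genes. With limma and Benjamini-Hochberg adjustment over all 16839 genes, 0 of the 9 passed 0.05, and 2 had an unadjusted p under 0.05; without trend and robust shrinkage the count was also 0. Of all tested genes 7.98% passed and 24.1% had an unadjusted p under 0.05. The 95% intervals of the 9 stayed between -0.11 and 0.09, so a difference as large as that of Chmp2a lay outside each of them.

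Among the late-acting genes, Chmp1b, which binds the microtubule-severing enzyme spastin in human cells, had a lowest value of 734, a median of 808 and a highest value of 867 normalized counts in HT-labelled libraries, against 710, 773 and 870 in WT-labelled libraries. The groups overlapped over nearly their whole range. The log2 difference was 0.05 ± 0.020 (limma, adjusted p = 0.0794). It passed, with adjusted p = 0.0484 and 0.0244, without HT vehicle female 5 or without WT fluoxetine male 5. Chmp1b is a single-exon gene whose span overlaps that of Gnal on the same strand and that of the antisense transcript AC140336.1. These spans include introns, and whether the genes share exon bases or reads was not tested. Chmp1a and Chmp5, the other late-acting genes, had log2 differences of 0.01 and 0.02 (limma, adjusted p = 0.797 and 0.417).

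Of the genes that start assembly, Chmp6 had a log2 difference between genotypes of -0.06 ± 0.022, averaged over strata (limma, adjusted p = 0.0653). It passed without any one of HT vehicle male 5, WT fluoxetine female 1, WT lithium female 1, WT lithium male 2, WT vehicle female 5 and WT vehicle male 1, with adjusted p from 0.0337 to 0.0489. It also passed, with adjusted p = 0.0273, without the 7 libraries high in striatal markers. Chmp7, which brings ESCRT-III to the nuclear envelope and lies on chromosome 14 as Chd8 does, had means of 2667 ± 100.4 in HT-labelled and 2721 ± 100.3 normalized counts in WT-labelled libraries (SD). Its log2 difference of -0.03 did not pass (limma, adjusted p = 0.245).

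The filament gene Chmp4b and its capping partners were close to 0. Chmp4b had means of 4689 ± 272 and 4718 ± 229 normalized counts in HT-labelled and WT-labelled libraries, Chmp3 2692 ± 163 and 2747 ± 145, and Chmp2b 1736 ± 105 and 1715 ± 93.7 (SD). Mutations of the human orthologue of Chmp2b cause a form of frontotemporal dementia. Its log2 difference was 0.02 with a 95% interval from -0.03 to 0.06, so the other VPS2-type gene showed no difference of the size seen for Chmp2a. The span of Chmp3, introns included, overlaps that of the antisense transcript 1700040L08Rik. Whether counting used strand is not given in the sources used here. Vps4a had 2776 ± 127 normalized counts in HT-labelled and 2787 ± 124 in WT-labelled libraries, a log2 difference of -0.01 (limma, adjusted p = 0.869).

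**Figure D2:**
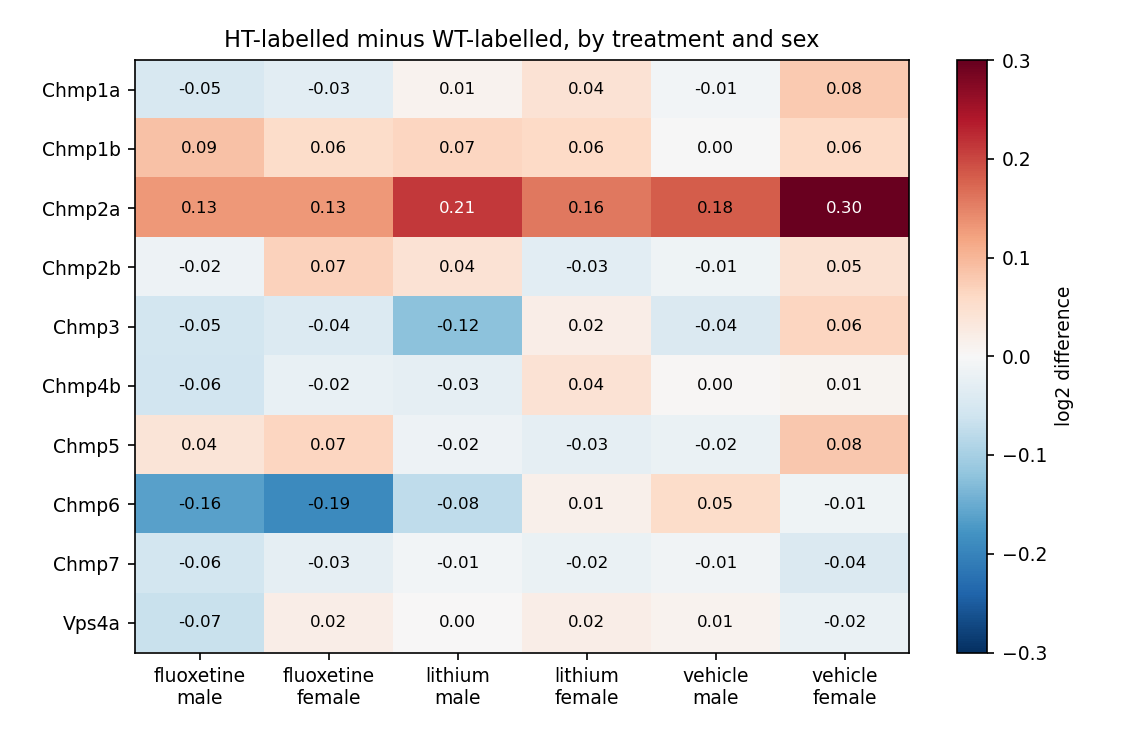
Log2 difference of each member (rows) between HT-labelled and WT-labelled libraries in each treatment and sex (columns), on a colour scale from -0.3 to 0.3 with the value printed in each cell. Chmp2a was above 0 in all 6 columns, and Chmp6 stood out on the negative side under fluoxetine.

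Within single strata, Chmp2a and Chmp6 alone of the 10 members had genotype groups that did not overlap. The shares of all tested genes with HT-labelled libraries lower and no overlap were 0.546% in lithium males, 0.445% in lithium females, 0.451% in vehicle males and 0.404% in vehicle females, where no member was among them. Chmp6, the myristoylated subunit that links ESCRT-II to the filament, did so under fluoxetine only. Fluoxetine males had 709, 683, 640, 667 and 696 normalized counts of Chmp6 in HT-labelled libraries, against 759, 774, 731, 803 and 734 in WT-labelled libraries. Fluoxetine females had 659, 672, 617 and 688 in HT-labelled libraries, against 701, 785, 772, 796 and 712 in WT-labelled libraries. In both sexes every HT-labelled library was below every WT-labelled library. The same share of all tested genes was 0.76% in these males and 1.89% in these females.

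Over both sexes under fluoxetine, Chmp6 averaged 670 ± 28.7 normalized counts in HT-labelled and 757 ± 35.3 in WT-labelled libraries (SD, n = 9 and 10). Its log2 difference was -0.18 ± 0.039, or -11.6% with a 95% interval from -16.2 to -6.7% (limma, adjusted p = 0.0125). It was the 1 member of the 9 that passed in this comparison, in which 0.849% of all tested genes passed. The call held in all 9 alternative analyses and whichever library was left out, with adjusted p of at most 0.0470. All 7 myelin, all 5 olfactory bulb and all 7 striatal markers had higher mean levels in HT-labelled than in WT-labelled fluoxetine libraries, with median log2 differences of 0.49, 0.63 and 0.53, although none of the 19 passed. The summed myelin markers ran from 131412 to 220425 normalized counts in HT-labelled fluoxetine libraries and from 69250 to 210923 in WT-labelled ones. Those of the striatum ran from 5008 to 12359 in HT-labelled and from 5695 to 9480 in WT-labelled ones, and those of the olfactory bulb from 486 to 12705 in HT-labelled and from 237 to 8378 in WT-labelled ones. With the striatal level as a covariate the difference of Chmp6 was -0.16 (limma, adjusted p = 0.0244), with the olfactory bulb level -0.18 (adjusted p = 0.00962), and without the 7 libraries high in striatal markers -0.18 (adjusted p = 0.0163). The part of myelin in this difference was not tested.

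In vehicle, Chmp6 showed no such order. Vehicle males had 728, 647, 663, 710 and 774 normalized counts of Chmp6 in HT-labelled libraries, against 603, 700, 728, 664 and 696 in WT-labelled libraries. Vehicle females had 727, 652, 752, 711 and 732 in HT-labelled libraries, against 717, 716, 794, 737 and 648 in WT-labelled libraries. The groups overlapped in both sexes, with a log2 difference of 0.02 ± 0.037 (limma, adjusted p = 0.878). The change in the genotype difference from vehicle to fluoxetine was -0.20 ± 0.054 and did not pass (limma, adjusted p = 0.607, unadjusted p = 0.000547). For this interaction 0% of genes passed, against 1040 of all tested genes with an unadjusted p under 0.05. In the genotype comparisons within vehicle and within lithium, 0 of the 9 members other than Chmp2a passed and 0 had an unadjusted p under 0.05 (limma), while 0.202% and 0.267% of all tested genes passed and 10.6% and 10.1% had such a p.

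**Figure D3:**
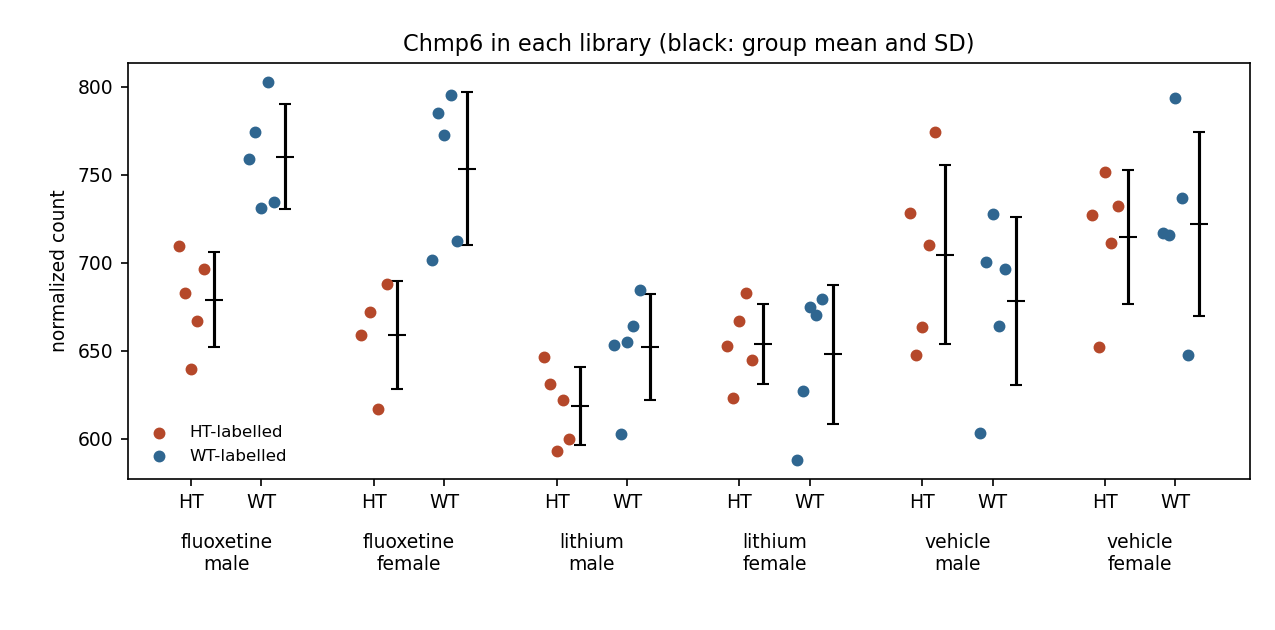
Normalized counts of Chmp6 (vertical axis) in each of 59 libraries, as points, by treatment, sex and genotype label (HT left of WT in each pair), with group means and SDs in black. HT-labelled libraries lay below WT-labelled libraries without overlap under fluoxetine in both sexes, and no lithium library exceeded 684 normalized counts.

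Chmp6 was lower after lithium. The 20 lithium libraries had a lowest value of 588, a median of 649 and a highest value of 684 normalized counts, against 603, 714 and 794 in the 20 vehicle libraries. All 20 lithium libraries were below the vehicle median and 4 were below the lowest vehicle library, so the groups overlapped in their lower part. The means were 643 ± 30.8 and 705 ± 46.9 in lithium and vehicle libraries (SD). The log2 difference averaged over genotypes and sexes was -0.13 ± 0.026, or -8.7% with a 95% interval from -12.0 to -5.2% (limma, adjusted p = 0.0021). Chmp6 was the 1 member of 10 that passed, and 4.41% of all tested genes did, 1.61% with lower levels. The call held in all 9 alternative analyses and without any single library.

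By genotype, the lithium males had 646, 631, 593, 622 and 600 normalized counts of Chmp6 in HT-labelled libraries, against 653, 603, 655, 664 and 684 in WT-labelled libraries. Lithium females had 653, 623, 667, 683 and 645 in HT-labelled libraries, against 588, 627, 675, 670 and 679 in WT-labelled libraries. The genotypes overlapped in both sexes. Set against vehicle, Chmp6 was -0.16 ± 0.037 in HT-labelled libraries on the log2 scale (limma, adjusted p = 0.049995), where 0.238% of all tested genes passed. The call in HT-labelled libraries was lost in 43 of 59 fits that left out a single library and in 4 of 9 alternatives, with adjusted p up to 0.21. In WT-labelled libraries the log2 difference was -0.11 ± 0.037 and did not pass (limma, adjusted p = 0.213, where 0.214% of all tested genes passed). The lithium effects in the 2 genotypes differed by -0.05, with a 95% interval from -0.16 to 0.06 and adjusted p = 0.99987 (limma), so no difference between them was detectable.

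Several marker lists differed in level between lithium and vehicle libraries. The markers of inhibitory neurons had a mean log2 level of 11.133 ± 0.065 in lithium and 11.028 ± 0.096 in vehicle libraries (SD, n = 20 each). All 7 striatal markers were higher in lithium than in vehicle libraries, 1 of them past the test, with a median log2 difference of 0.35. All 6 meningeal markers were lower, 2 past the test, with a median of -0.37. All 5 olfactory bulb markers were lower with a median of -0.27, and all 7 immediate early genes, which respond to neuronal activity, were higher with a median of 0.22, none of either list past the test. Summed striatal markers ran from 5615 to 32576 normalized counts in lithium libraries and from 4405 to 17784 in vehicle libraries, with no marker at 0. With the striatal level as a covariate the Chmp6 difference was -0.12 (limma, adjusted p = 0.00417), and without the 7 libraries high in these markers it was -0.13 (adjusted p = 0.00423). Summed olfactory bulb markers ran from 439 to 13736 normalized counts in lithium libraries and from 370 to 16794 in vehicle libraries. The mean log2 level of the immediate early genes ran from 9.12 to 11.21 and from 9.21 to 11.58 in the same groups. The part of inhibitory neurons, of meningeal tissue and of the immediate early genes in the Chmp6 difference was not tested.

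None of the other 9 members passed in the lithium comparison. Chmp3 came closest, with a lowest value of 2499, a median of 2826 and a highest value of 3125 normalized counts in lithium libraries, against 2390, 2678 and 2983 in vehicle libraries. The groups overlapped over most of their range, and the log2 difference was 0.07 ± 0.024 (limma, adjusted p = 0.105). Chmp2a did not follow lithium, with a log2 difference of 0.00 and a 95% interval from -0.03 to 0.04 (limma, adjusted p = 0.992). The remaining 7 members lay between -0.03 and 0.01, and the median of all tested genes was -0.00038.

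Chmp2a was higher after fluoxetine in WT-labelled libraries. The 10 WT-labelled fluoxetine libraries had a lowest value of 1737, a median of 1796 and a highest value of 1913 normalized counts, against 1556, 1641 and 1754 in the 10 WT-labelled vehicle libraries. Of the fluoxetine libraries 9 were above the highest vehicle library, and the tenth was above the vehicle median. The means were 1817 ± 60.5 and 1654 ± 67.6 in fluoxetine and vehicle libraries (SD). The log2 difference was 0.14 ± 0.025, or 9.9% with a 95% interval from 6.2 to 13.7% (limma, adjusted p = 0.00742). It was the 1 member of 10 that passed, where 0.19% of all tested genes did.

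The WT-labelled vehicle libraries of this comparison also belong to the genotype comparison for which Chmp2a was noted, so low values there would raise both differences. The adjusted p does not allow for that choice of gene. The call held without any single library, with adjusted p of at most 0.0296. It was lost when the model held only the groups compared (adjusted p = 0.119), and without the 7 libraries high in striatal markers the difference was 0.13 (adjusted p = 0.0496). Olfactory bulb markers were lower in WT-labelled fluoxetine than in WT-labelled vehicle libraries, 5 of 5 with a median log2 difference of -0.86 and none past the test. Their sums ran from 237 to 8378 normalized counts with fluoxetine and from 372 to 10960 with vehicle. With their level as a covariate the difference of Chmp2a was 0.14 (limma, adjusted p = 0.00468). All 7 myelin markers (median -0.16) and 5 of 6 meningeal markers (median -0.31) were also lower in WT-labelled fluoxetine libraries, none past the test. The summed myelin markers ran from 69250 to 210923 normalized counts with fluoxetine and from 123283 to 179364 with vehicle, and the meningeal ones from 5088 to 8663 and from 6065 to 19986. The part of these 2 lists in the Chmp2a difference was not tested.

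In HT-labelled libraries Chmp2a had a lowest value of 1843, a median of 1986 and a highest value of 2068 normalized counts with fluoxetine, against 1835, 1946 and 2125 with vehicle. These groups overlapped throughout. The log2 difference was 0.03 ± 0.026 with a 95% interval from -0.02 to 0.08 (limma, adjusted p = 0.923), and 0% of tested genes passed in that comparison, against 857 genes with an unadjusted p under 0.05. The difference between these fluoxetine effects is the same quantity as the change in the genotype difference, -0.11 on the log2 scale, and is given as a description. Averaged over both genotypes, in equal parts, the log2 difference of Chmp2a was 0.08 ± 0.018 (limma, adjusted p = 0.0468), and it was the 1 member called, where 0.0653% of all tested genes were. That call was lost in 39 of 59 fits that left out a single library and in 4 of 9 alternatives, with adjusted p up to 0.144. It also uses the WT-labelled vehicle libraries, and its adjusted p does not allow for the choice of Chmp2a.

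None of the other 9 members passed under fluoxetine, averaged over genotypes, and 2 had an unadjusted p under 0.05 (limma). Of all 16839 tested genes, 2009 had such a p. Their log2 differences were above 0 for 7 and below 0 for Chmp1b and Chmp2b, with a median of 0.02, beside 50.9% above 0 and a median of 0.0015 for all tested genes. Chmp4b had a lowest value of 4421, a median of 4873 and a highest value of 5212 normalized counts in fluoxetine libraries, against 3977, 4644 and 5052 in vehicle libraries, a log2 difference of 0.06 ± 0.025 (limma, adjusted p = 0.304). Chmp1a, a late-acting subunit, had 2550, 2848 and 3016 in fluoxetine libraries, against 2475, 2736 and 2952 in vehicle libraries, a log2 difference of 0.04 ± 0.019 (limma, adjusted p = 0.372). The groups overlapped for both genes. For Chmp6 in WT-labelled libraries fluoxetine and vehicle differed by 0.11 on the log2 scale (limma, adjusted p = 0.157). The WT-labelled fluoxetine libraries are shared with the genotype comparison under fluoxetine, where Chmp6 was called.

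**Figure D4:**
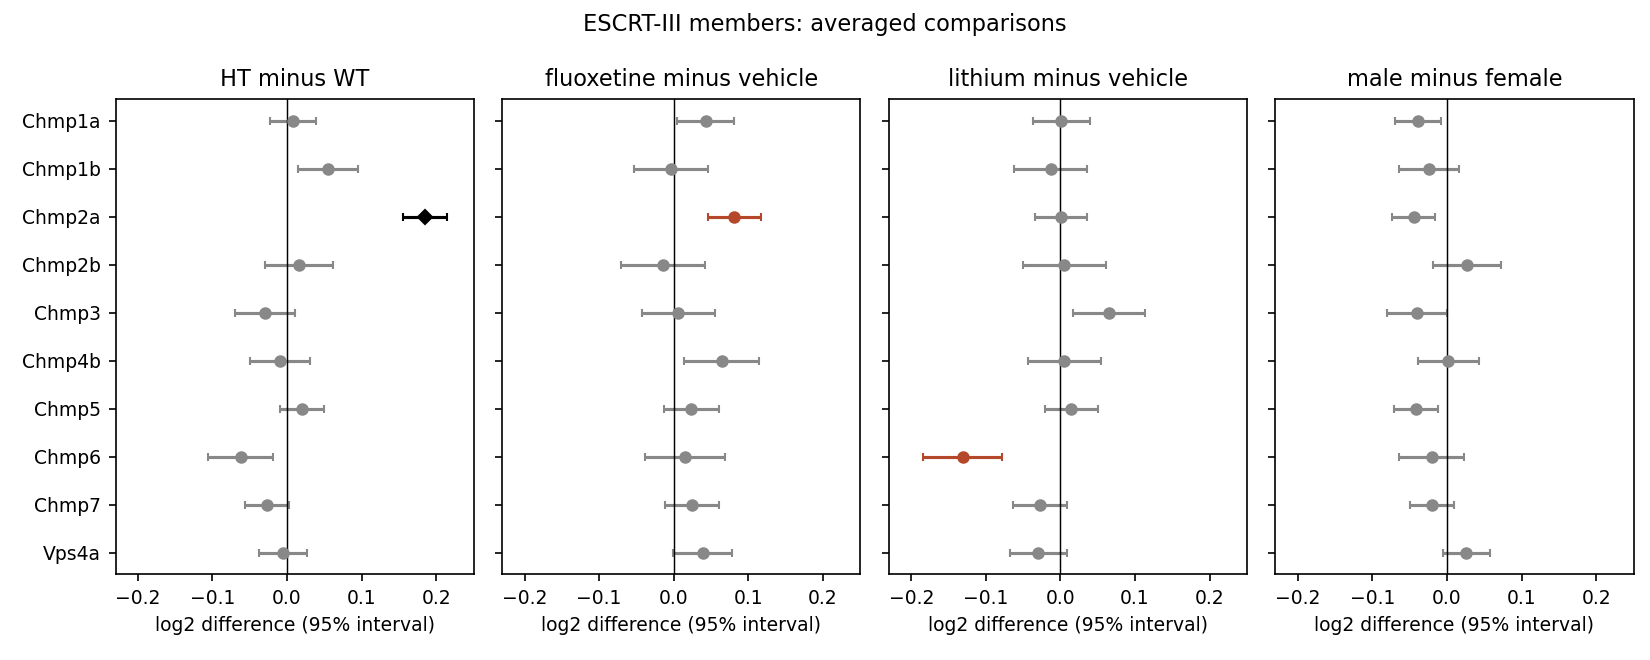
Log2 differences with 95% intervals (horizontal axis) for the 10 members (rows) in the averaged comparisons of genotype, fluoxetine, lithium and sex. Red points passed at an adjusted p under 0.05 and grey points did not. The black diamond is the genotype difference of Chmp2a, which carries no test. Chmp2a under fluoxetine (0.08) and Chmp6 under lithium (-0.13) are the red points. The fluoxetine call of Chmp2a does not allow for the choice of that gene and was lost in most fits that left out a single library.

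Sex made little difference. Averaged over genotypes and treatments, the male minus female log2 differences of the 10 members lay between -0.04 and 0.03. None passed with limma, 4 had an unadjusted p under 0.05, and without trend and robust shrinkage the count was also 0, while 0.154% of all tested genes passed and 7.85% had such a p. Chmp2a averaged 1807 ± 137 normalized counts in males and 1860 ± 153 in females (SD, n = 30 and 29), a log2 difference of -0.04 ± 0.014 (limma, adjusted p = 0.341). Chmp5 averaged 1994 ± 80.2 in males and 2051 ± 75.5 in females, also -0.04 (limma, adjusted p = 0.426).

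The wider ESCRT pathway was measured with 29 other genes that passed the filter. They covered ESCRT-0, which gathers ubiquitylated cargo, ESCRT-I and ESCRT-II, which pass it on, further ESCRT-III genes, and adaptors. In the averaged genotype comparison 0 of 29 passed with limma and 1 had an unadjusted p under 0.05, where 7.98% and 24.1% of all tested genes did. Of the 29, 20 were above 0 and the median was 0.01, beside 50.8% above 0 and a median of 0.0016 for all tested genes. Those with the smallest p in each complex were the ESCRT-0 gene Hgs (0.02), the ESCRT-I gene Ubap1 (-0.09), the ESCRT-II gene Vps25 (0.03), the ESCRT-III regulator Cc2d1a (0.09) and the midbody gene Cep55 (0.36 ± 0.15, adjusted p = 0.119, at a mean of only 12.95 normalized counts).

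After lithium 1 of the 29 passed and was higher, a share of the list near the 4.41% of all tested genes that passed. An unadjusted p under 0.05 was found for 7 of the 29 (limma), beside 3156 of all 16839 tested genes. Pdcd6, which encodes the calcium-binding adaptor ALG-2 that links calcium to ESCRT recruitment, was 0.09 ± 0.021 higher on the log2 scale (limma, adjusted p = 0.00715). In that comparison the ESCRT-I gene Vps37a was at 0.08 (adjusted p = 0.0929) and the ESCRT-II gene Snf8 at 0.07 (adjusted p = 0.231). Under fluoxetine 0 of 29 passed and 3 had an unadjusted p under 0.05 (limma). Of all tested genes 0.0653% passed, and 2009 of 16839 had such a p. Snf8 was at 0.11 (adjusted p = 0.158) and Vps37a at -0.09 (adjusted p = 0.212). For sex 0 of 29 passed and 4 had an unadjusted p under 0.05, where 0.154% and 7.85% of all tested genes did. Cc2d1b was at -0.13 and Mvb12b at 0.04 (limma, adjusted p = 0.347 and 0.366).

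Around Chmp2a on chromosome 7, the genes nearest to it had genotype differences in both directions. Ube2m, 312 bases away, and Trim28, 974 bases away, had log2 differences between HT-labelled and WT-labelled libraries of -0.04 and 0.02 (limma, adjusted p = 0.287 and 0.716). Zbtb45 was lower by limma, at -0.13 ± 0.033 (adjusted p = 0.00808), where 7.98% of all tested genes passed. Zfp446 went in the direction of Chmp2a, at 0.19 ± 0.069, and did not pass (limma, adjusted p = 0.0785). Mzf1 was at -0.03 and the noncoding gene Gm38947 at 0.06.

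The genes whose 12 group means were most like those of Chmp2a on the log2 scale were Lrrc61 and Angptl6 (Pearson r of 0.94 each), Cope and Oard1 (0.93 each) and Crlf2 (0.92). The most opposite were Srp72 (-0.92), Slc25a17 (-0.91), Nlgn3, Stx16 and Pcdhga9 (-0.90 each). These were picked from all tested genes, and the likeness covers group means only. Within groups, Lrrc61 had r = -0.19 with Chmp2a and Cope 0.29. Of the other members Chmp1b was most like Chmp2a over group means, with r = 0.79, and 0.25 within groups. The group means of Chmp2a hold the genotype difference for which it was noted, so likeness over them is no separate result.

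Members varied together only in part. Among the 45 pairs, correlations of the deviations from group means ran from -0.39 for Chmp2b with Chmp4b to 0.78 for Chmp4b with Vps4a, with a median of 0.22 and 29 pairs above 0. The points share libraries, and no p is given. Chmp4b encodes the filament and Vps4a the ATPase that takes it apart. Both fell with the level of the olfactory bulb markers, with r of -0.562 and -0.442, while Chmp2b rose with it (0.646). The part of that level in the correlations between members was not tested.

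The same genes differed in how they went with the olfactory bulb markers, whose level varied widely between libraries. Chmp2b rose with it across 59 libraries (Pearson r = 0.646, Spearman rho = 0.656, permutation p = 1e-05 for both, the smallest 100000 permutations can give, adjusted p = 0.00015 over 30 pairs of a member with the olfactory bulb, striatal or myelin markers). It was 0.657 in HT-labelled and 0.631 in WT-labelled libraries, and 0.671 without the 2 libraries farthest from the median marker level.

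Chmp4b and Vps4a went the other way. For Chmp4b r was -0.562 and rho -0.593 (permutation p = 1e-05 for both, adjusted p = 0.00015), with -0.774 in HT-labelled and -0.227 in WT-labelled libraries, and -0.543 without the 2 farthest libraries. For Vps4a r was -0.442 and rho -0.499 (permutation p = 0.00043 and 4e-05, adjusted p = 0.0043 and 0.0004), with -0.678 in HT-labelled and -0.123 in WT-labelled libraries, and -0.409 without the 2 farthest. Whether the genotypes differ in these relations was not tested. Chmp2a showed none, with r = 0.056 and rho = 0.0598 (permutation p = 0.672 and 0.652, adjusted p = 0.72 and 0.724), and 0.0942 without the 2 farthest.

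Smaller relations passed the adjustment for Chmp3 with the olfactory bulb level (r = -0.382, rho = -0.409, permutation p = 0.00279 and 0.0014, adjusted p = 0.0167 and 0.0101). Chmp1a was similar (r = -0.348, rho = -0.375, permutation p = 0.00754 and 0.00392, adjusted p = 0.0377 and 0.0196). Chmp1b went with the myelin level (r = 0.389, rho = 0.363, permutation p = 0.00246 and 0.00492, adjusted p = 0.0167 and 0.0211). Without the 2 farthest libraries these 3 had r of -0.36, -0.323 and 0.357. Chmp6 went with the striatal level (r = -0.329, rho = -0.403, permutation p = 0.0105 and 0.00168, adjusted p = 0.0452 and 0.0101), at -0.0447 in HT-labelled and -0.525 in WT-labelled libraries and -0.366 without the 2 farthest. Chmp6 with the myelin level passed by rho only (r = -0.298, rho = -0.324, permutation p = 0.0214 and 0.0124, adjusted p = 0.0804 and 0.0465), at -0.0491 in HT-labelled and -0.378 in WT-labelled libraries and -0.229 without the 2 farthest. By r 7 of the 30 pairs passed, and by rho 8. The permutations took no account of the groups, so differences between groups enter these relations. The libraries numbered 1 held the lowest olfactory bulb level in 6 of 6 HT-labelled groups and 1 of 6 WT-labelled groups, and the part of anything they share was not tested.

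**Figure D5:**
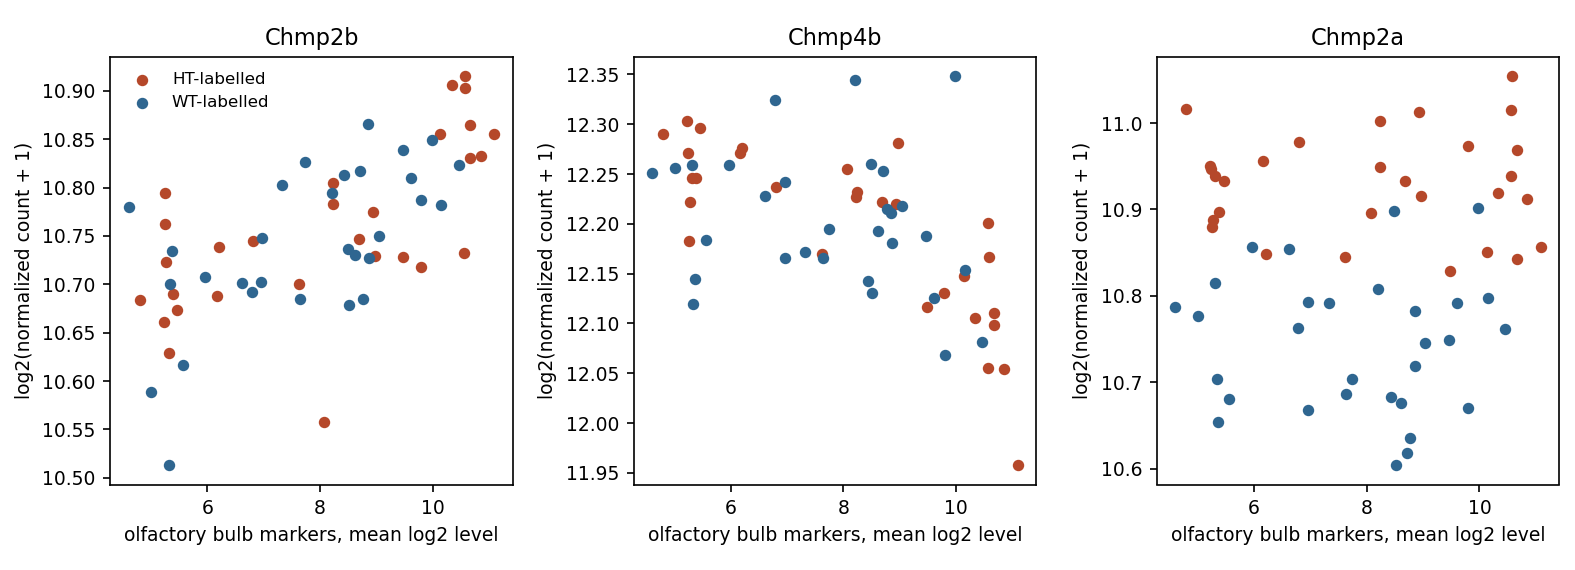
Log2 level of Chmp2b, Chmp4b and Chmp2a (vertical axes) against the mean log2 value of 5 markers of the olfactory bulb (horizontal axes), with 1 point per library coloured by genotype label. Chmp2b rose (r = 0.646) and Chmp4b fell (r = -0.562) along the axis, while Chmp2a did not follow it (r = 0.056) and HT-labelled points lay mostly above WT-labelled points.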

How the data were processed

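Per the labels' protocols, libraries were made from RNA with a stranded TruSeq mRNA kit. The authors deposited 1 table of normalized values, a signal in which counts were divided by a factor per library. The build GRCm38, DESeq2 1.19.11, R 3.6.0 and Salmon 0.11.2 are given, without role or order, per the submitters' processing notes. The values are not whole, so no count model was fitted, although the design had allowed for one. They sum to 30.3 to 33.7 M per library. Salmon divides reads among similar transcripts, which makes genes that share bases with a neighbour uncertain (here Chmp1a, Chmp1b, Chmp3 and Vps4a). Symbols matched 51285 of 51456 identifiers.

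The values of all genes with a mean of at least 10 were tested as log2(value + 1) with limma 3.58.1 (R 4.3.3), with 1 mean for each of 12 groups, empirical Bayes shrinkage with trend and robust settings, and p-values adjusted by Benjamini-Hochberg over 16839 genes, with calls at 0.05. Fold changes on this scale understate changes of low genes. Main contrasts average strata with equal weight. Correlations used two-sided permutation tests (100000). The fit was first checked on simulated data.

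The members, gene lists, marker lists and comparisons were chosen with earlier results of these data known. Named were all members, Chd8, other ESCRT genes that passed or had the smallest p of their complex, the 5 genes most and 5 least like Chmp2a, and the 3 nearest tested genes on each side of it. The alternatives tried were TMM factors, plain limma with neither trend nor robust settings, no filter, a 0.5 pseudocount, only the compared groups in the model, a replicate block, olfactory bulb or striatal marker levels as covariates, the fit without 7 libraries high in striatal markers, and each library left out in turn. Gene positions are from GENCODE M21 (GRCm38) and promoters from RefSeq (GRCm38.p6).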

Additional observations from a re-analysis of the deposited data

Results flagged for a closer look

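Among 120 groups of 4 or 5 libraries (10 members in 12 groups), 3 held a library far from the others, and chance gives about 1 in 20. All 3 were WT-labelled fluoxetine females, each a different library. Chmp1a was at 2744.9 normalized counts in replicate 5, against 2932.5 to 2954.5 in the other 4. Chmp2b was at 1460.5 in replicate 2, against 1664.5 to 1704.8 in the others. Vps4a was at 2719.5 in replicate 3, against 2766.4 to 2781.1 in the others. None of these 3 genes passed in the averaged comparisons, with all libraries or with any single one left out.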

How the results depend on the processing

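Chmp2a kept a log2 difference between HT-labelled and WT-labelled libraries of 0.18 to 0.19 in all 8 alternatives and all 59 fits without a library. The calls of Chmp6 for lithium and for genotype under fluoxetine held in all of them. For genotype, 0 of the 9 other members passed, but 1 did without the 7 libraries high in striatal markers, and 0 to 1 with a library left out; genes called were 1344, against 877 with no filter and 1097 to 1677 with a library left out. For fluoxetine, 1 member (Chmp2a) and 11 genes were called. The member was lost, leaving 0, without trend and shrinkage (7 genes), with no filter (4), with the groups alone (4) and without the libraries high in striatal markers (2). Genes were 41 with the replicate block, 41 with the olfactory bulb covariate, 18 with the striatal covariate, and 4 to 74 with a library left out (members 0 to 1). The fluoxetine call of Chmp2a in WT-labelled libraries became 0 with the groups alone. The lithium call of Chmp6 in HT-labelled libraries became 0 with no filter, with the groups alone, with the striatal covariate and without the libraries high in striatal markers, and 0 to 1 with a library left out. For lithium, 742 genes were called, against 483 with no filter, 1234 with the olfactory bulb covariate and 561 to 881 with a library left out.

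The averaged fluoxetine call of Chmp2a held only when the library left out was HT fluoxetine female 4 or male 3 or 4, HT lithium female 1 or male 1, 3 or 4, HT vehicle female 1 or 4 or male 1 or 5, WT fluoxetine female 5 or male 3, 4 or 5, WT lithium female 1, or WT vehicle female 1 or 3 or male 1 or 5. That of Chmp6 for lithium in HT-labelled libraries held only for HT lithium female 4, HT vehicle female 2 or male 2 or 3, WT fluoxetine female 2 or 5 or male 1, WT lithium female 1 or male 1 or 2, or WT vehicle female 3, 4 or 5 or male 1, 3 or 5. In all these fits the direction was kept. The cause of the changes was not tested.

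Genes called over the alternatives ranged from 6 to 103 for genotype in vehicle (34 as reported), 81 to 268 in fluoxetine (143) and 17 to 136 in lithium (45), from 0 to 113 for fluoxetine in WT-labelled libraries (32), and from 0 to 106 and 16 to 144 for lithium in HT-labelled (40) and WT-labelled libraries (36). With TMM factors the median over genes shifted by no more than 0.0048. The replicate block changed no call of a member. Pairing by replicate number was not established: 123 of 319 same-number pairs, not all, had r over 0.1, with a median of 0.05 (-0.02 for different numbers), and 19 of 59 libraries correlated best with their own number. The numbers may still carry structure, since immediate early genes were highest in replicate 1 in 10 of 12 groups. Depth sets the precision of each value, and with groups of 4 or 5 the standard error of a member's log2 difference in 1 stratum was 0.035 to 0.059.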
